A study of Mus musculus with 5 samples.

Results

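The genes described here are the 37 that encode the enzymes of the tricarboxylic acid (TCA) cycle, of pyruvate oxidation and of the malate-aspartate shuttle, without succinate dehydrogenase. They are listed by name, with no threshold on measured values, but the list was drawn up with earlier results of these data known. All 37 were found by gene ID among the 53700 IDs of the count table. They were measured in ribosome-bound RNA of midbrain dopaminergic (DAergic) neurons by BAC-TRAP, in which an EGFP-tagged ribosomal protein, L10a, is pulled down with the mRNAs that its ribosomes carry. All mice were C57BL/6, aged 4 months, carried the L10a transgene and received AAV:THCre in the midbrain, a virus in which the Th promoter drives Cre recombinase. In every mouse Cre switches on the tag, and in the Esrrg Flox mice (genotype L10a;Esrrg Flox) it also removes exon 2 of Esrrg, which encodes estrogen-related receptor gamma (ERRγ). The Esrrg WT mice (genotype L10a;Esrrg WT) have no floxed alleles. Tissue was collected 1 month after the virus was given, and each library is a pool of midbrains of several mice. There were 3 WT libraries (replicates 2, 3 and 4) and 2 Flox libraries (replicates 2 and 4), so the p-values measure only the spread between these 5 pools.

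Pyruvate made in the cytosol enters mitochondria through a carrier, is turned into acetyl-CoA by the pyruvate dehydrogenase (PDH) complex and is then oxidized in the TCA cycle, which feeds electrons to the respiratory chain. PDH is switched off by kinases and on by phosphatases, and pyruvate carboxylase, glutamate dehydrogenase and the malic enzymes add to or draw from the cycle. The malate-aspartate shuttle carries cytosolic NADH equivalents into mitochondria and is heavily used by neurons. ERRγ is an orphan nuclear receptor that binds DNA next to many genes of oxidative metabolism, and DAergic neurons are known for a high and sustained demand for ATP.

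The 5 libraries held between 20635855 and 23105058 counts assigned to genes. The 11 markers of DAergic neurons were present in every library and summed to between 51078 and 60871 normalized counts (counts divided by the size factor of the library) in WT and to 52075 and 54810 in Flox, with 1 of the 11 lower in Flox. Markers of other cells were present as well, and those of oligodendrocytes and astrocytes summed to more than the DAergic markers in every library. The 8 oligodendrocyte markers summed to between 106976 and 157889 in WT and to 122434 and 146136 in Flox. Those of astrocytes summed to between 74863 and 108948 in WT and to 78848 and 102319 in Flox. The 6 GABAergic markers summed to between 32115 and 32519 in WT and to 31600 and 29546 in Flox. The 12 markers of microglia summed to between 1886 and 3677 in WT and to 6578 and 14703 in Flox, and 10 of the 12 were higher in Flox. Of 8 endothelial markers, 3 were higher, with sums of 125 to 270.1 in WT and of 295 and 709.8 in Flox. Of the 9 astrocyte, 8 oligodendrocyte and 3 glutamatergic markers none passed in either direction, while 1 of 6 GABAergic markers was lower and 1 higher. No marker was at 0 in any library. Of the libraries, Flox replicate 4 stood farthest apart, with a chi-square per degree of freedom of 20.2 to 45.8 against the others and of 4.25 to 26.9 among those. WT replicate 4 had almost no reads from Y-linked genes (1.92 normalized counts of Ddx3y, against 952 to 1374 elsewhere). The part of these differences in the results below was not tested, and fewer cells of a type and less RNA per cell cannot be told apart in pooled tissue.

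Esrrg (ENSMUSG00000026610.14) had 1763, 1643 and 1726 normalized counts in the WT libraries and 1504 and 1170.1 in the Flox libraries. Both Flox values lay below every WT value, with a log2 fold change (Flox over WT) of -0.35 (SE 0.13), and the gene did not pass (DESeq2 adjusted p = 0.0753). The reads of all exons but the removed one still count, so this total does not measure the deletion.

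The question was which steps of pyruvate and acetyl-CoA oxidation differ in ribosome-bound RNA after deletion of Esrrg. A gene was called at a DESeq2 adjusted p under 0.05. Of the 37 genes, 8 were lower in Flox and 0 higher, where 8.25% of all 15724 genes tested passed, 4.05% as lower and 4.2% as higher. The 8 were Pdpr, Pdha1, Idh3g, Suclg1, Idh3a, Got2, Pcx and Idh3b, with log2 fold changes from -1.06 to -0.35. Pdpr, Pdha1 and Idh3g also fell by a fold of at least 1.5, as did 1.41% of all genes, while 0 of the 37 and 1.77% of all genes rose by that fold. These enzymes are abundant, and more reads make a given fold easier to call. Among the 4612 genes with a mean of at least 1000 normalized counts 7.68% were lower and 7.52% higher, and of the 26 enzyme genes at that level 7 were lower and 0 higher. At that level 24 of the 26 had a negative log2 fold change, as did 53.8% of the 4612 genes. Counting all 37, the log2 fold change was negative in 31 and positive in 6, against 50.9% negative among all genes, and the median was -0.11 (all genes, -0.01). Both Flox libraries lay below all 3 WT libraries in 16 of the 37 (22.5% of all genes) and above them in 1, Idh2 (19.9%). At an unadjusted p under 0.05 there were 11 of the 37, all lower, the further 3 being Me3, Glud1 and Fh1.

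**Figure D1:**
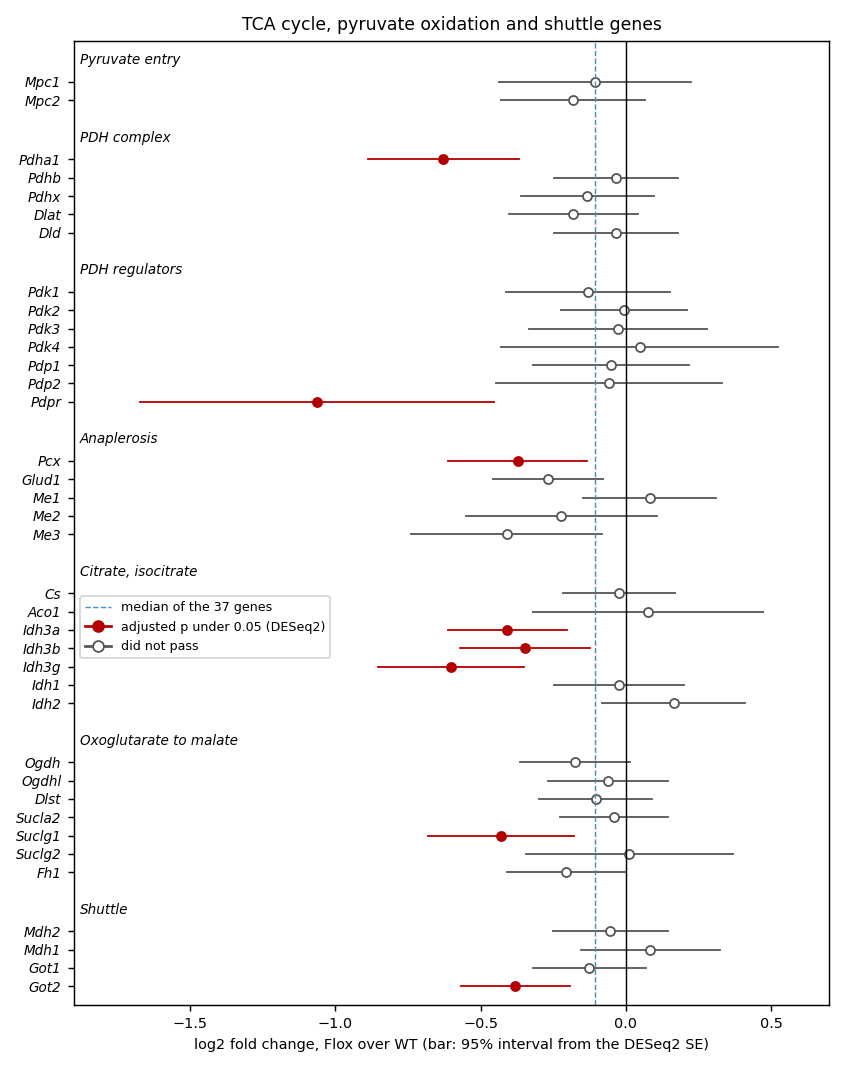
The log2 fold change of Flox over WT (horizontal axis) is plotted for the 37 genes, grouped by role, with the 95% interval from the DESeq2 standard error as bars; filled red points have an adjusted p under 0.05 and the dashed line is the median of the 37. The 8 red points lie between -1.06 and -0.35, and most of the other intervals include 0.

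The calls depended on the test and on single libraries. The edgeR quasi-likelihood test, in which 0.628% of genes were lower, called 2 of the 37, Pdha1 and Idh3g (edgeR adjusted p = 0.0473 for each), and the other 6 had edgeR adjusted p-values between 0.0532 and 0.0884. Without WT replicate 2 the same 2 genes passed in DESeq2, without WT replicate 4 these with Idh3a and Got2, without WT replicate 3 these with Suclg1, Idh3a and Idh3b, and without Flox replicate 2 all but Pcx and Idh3b. Without Flox replicate 4 none of the 8 passed, with log2 fold changes from -0.89 to -0.29 and 8 of 8 at an unadjusted p under 0.05. In each of these fits, all 8 genes kept a negative log2 fold change and an unadjusted p under 0.05.

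**Figure D2:**
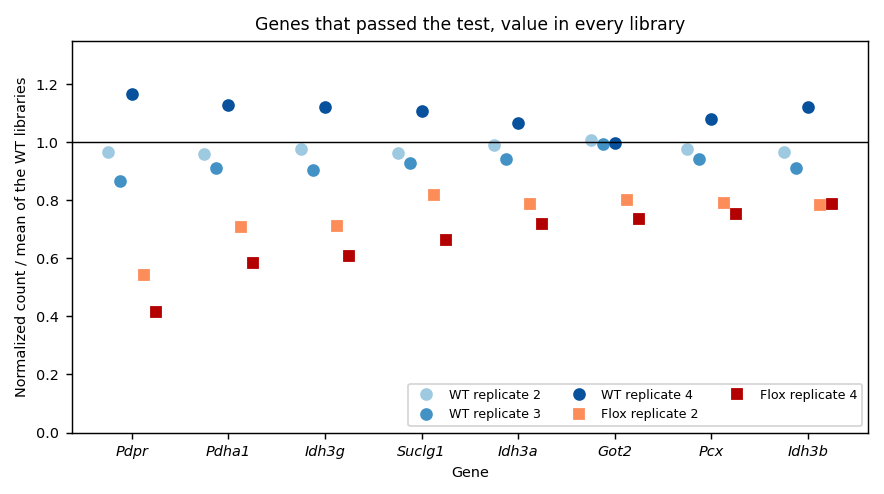
Normalized counts of the 8 genes that passed are shown in every library as a fraction of the mean of the WT libraries (vertical axis, linear from 0); circles are WT and squares are Flox libraries. All Flox squares lie below all WT circles, and Flox replicate 4 is the lower Flox library in 7 of the 8 genes, Idh3b being the exception.

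The ERR response element has the core AAGGTCA, often preceded by the letters TN. RefSeq start sites were available for 34 of the 37 genes. The window from 250 bases before to 50 bases after each start was searched on both strands. Idh3a, Pdp1 and Me2 had no window, so the called gene Idh3a was not searched. TNAAGGTCA was in the window of 0 of the 34 genes, and 1.43% of the 27025 genes with a window hold it. The core alone, which also counts matches to the longer form, was in 2 of 34 (5.38% of all genes), in Ogdh at position -5 and in Got1 at -245 from the start, and neither gene was called. No match says only that these letters are not in this window. The windows of Pdha1 and Idh3g, the genes called by both tests, and those of the only genes with the core are shown from 250 bases before to 30 bases into the transcript (RefSeq, GRCm38.p6), 5′ to 3′ on the strand of the gene. A single capital letter near the end is the first transcribed base and a run of capitals is the core on either strand. In Ogdh the core spans the start, so the first transcribed base lies within the run. The windows are Pdha1 at chrX:160138401-160138680 (minus strand), Idh3g at chrX:73786868-73787147 (minus strand), Ogdh at chr11:6291920-6292199 (plus strand, 1 of several starts) and Got1 at chr19:43524576-43524855 (minus strand).
Pdha1: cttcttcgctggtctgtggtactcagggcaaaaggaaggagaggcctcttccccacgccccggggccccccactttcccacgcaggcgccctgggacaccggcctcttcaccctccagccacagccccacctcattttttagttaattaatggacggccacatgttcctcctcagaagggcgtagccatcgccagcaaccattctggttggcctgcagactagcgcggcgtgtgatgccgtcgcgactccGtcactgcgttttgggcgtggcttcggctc
Idh3g: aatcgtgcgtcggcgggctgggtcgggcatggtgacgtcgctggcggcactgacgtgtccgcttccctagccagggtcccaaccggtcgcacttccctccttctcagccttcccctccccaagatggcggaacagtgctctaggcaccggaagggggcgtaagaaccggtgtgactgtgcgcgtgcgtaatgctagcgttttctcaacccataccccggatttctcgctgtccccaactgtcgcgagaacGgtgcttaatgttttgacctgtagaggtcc
Ogdh: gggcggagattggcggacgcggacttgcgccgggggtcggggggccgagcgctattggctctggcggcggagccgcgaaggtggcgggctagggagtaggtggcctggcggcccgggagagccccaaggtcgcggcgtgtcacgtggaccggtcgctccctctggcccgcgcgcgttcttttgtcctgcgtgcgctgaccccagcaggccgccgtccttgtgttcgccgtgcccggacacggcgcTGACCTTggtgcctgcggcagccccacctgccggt
Got1: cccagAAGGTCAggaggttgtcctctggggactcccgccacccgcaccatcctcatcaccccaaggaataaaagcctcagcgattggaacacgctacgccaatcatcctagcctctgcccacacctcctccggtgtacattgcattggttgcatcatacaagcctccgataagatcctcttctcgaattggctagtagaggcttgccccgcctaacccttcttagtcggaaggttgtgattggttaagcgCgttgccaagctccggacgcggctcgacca

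Other promoter letters were searched as well. The GC box GGGCGG was in 24 of the 34 windows (38.2% of all genes), in 2 of the 7 called genes with a window (Pdpr and Pcx) and in 22 of the 27 others. CCAAT was in 20 of 34 (41.1% of all genes), in 2 of 7 called and 18 of 27 others, and the E-box CACGTG in 6 of 34 (8.09% of all genes), in Pdpr, Pcx and 4 genes that were not called. The NRF1 motif was in Dld and Sucla2 only (5.19% of all genes), and the ETS motif CCGGAAGT in Dlst only (4.31%). All were searched on both strands and a match is a description, not a binding site.

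Pyruvate entry and PDH came first in the order of the pathway. Mpc1 and Mpc2, the subunits of the mitochondrial pyruvate carrier, did not pass, with log2 fold changes of -0.11 (95% interval -0.44 to 0.22) and -0.18 (-0.43 to 0.06). With the trend of counts on transcript length removed, Mpc2 passed as lower (DESeq2 adjusted p = 0.0324). Mpc1 is uncertain, since its processed pseudogene Mpc1-ps had reads equal to 55.5% of those of Mpc1. In the PDH complex 1 of 5 genes was lower. That gene, Pdha1 (ENSMUSG00000031299.11, on chromosome X), encodes the alpha subunit of E1, which decarboxylates pyruvate and carries the regulatory phosphorylation sites. Pdha1 had 3471, 3303 and 4077 normalized counts in WT and 2565 and 2115 in Flox. The groups did not overlap and WT replicate 4 was the highest. The mean fell from 3617 ± 407 (SD, n = 3) to 2340.2 ± 318 (SD, n = 2), a log2 fold change of -0.63 (SE 0.13, DESeq2 adjusted p = 0.000259). Without Flox replicate 4 the call was lost, with a log2 fold change of -0.50 and a DESeq2 adjusted p of 0.0971. The study had picked Pdha1 for follow-up partly from these libraries, so that choice is not independent evidence. In midbrain RNA of other mice, the paper named Idh3g but not Pdha1 among the genes reduced after Esrrg knockdown. It named Pdha1 among those raised by Esrrg overexpression.

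The partners of Pdha1 did not pass. Pdhb, the beta subunit of E1, had 3247, 3388 and 3525 normalized counts in WT and 3086 and 3530.1 in Flox, so the groups overlapped (log2 fold change -0.03, 95% interval -0.25 to 0.18, DESeq2 adjusted p = 0.921). E1 is a tetramer with equal numbers of both subunits. The log2 ratio of Pdha1 to Pdhb counts was 0.10, -0.04 and 0.21 in WT and -0.27 and -0.74 in Flox. All Flox ratios were below all WT ratios, by 0.59 on average, and Flox replicate 4 was the farthest from WT. The exact permutation test (two-sided) gave p = 0.1, the smallest that 3 against 2 libraries allow. Dlat, the E2 acetyltransferase, Pdhx, which anchors E3 to it, and Dld, the E3 dehydrogenase shared with the oxoglutarate complex, had log2 fold changes of -0.18, -0.13 and -0.03. Both Flox libraries of Dlat and Pdhx were below all WT libraries, at 3407 and 3681 against 3703 to 4405 for Dlat and at 1162 and 1166 against 1193 to 1345 for Pdhx, without a call.

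Of the 7 genes that switch PDH off or on, 1 was lower. Pdpr (ENSMUSG00000033624.11), the regulatory subunit of PDH phosphatase, which restrains its catalytic subunit, had 104, 93.8 and 126 normalized counts in WT and 58.6 and 44.7 in Flox. It was the least abundant of the 37 genes per length and had the steepest fall, to 0.479-fold of WT (log2 fold change -1.06, SE 0.31, DESeq2 adjusted p = 0.0144). The call was lost without WT replicate 2 (DESeq2 adjusted p = 0.130), and without WT replicate 3 (0.0637), while without WT replicate 4 or Flox replicate 4 DESeq2 gave no adjusted p and log2 fold changes of -0.94 and -0.89. An overlapping gene, 9430091E24Rik, had reads equal to 30.6% of those of Pdpr, and strand was not used in counting. The catalytic subunits Pdp1 and Pdp2 had log2 fold changes of -0.05 and -0.06, with 95% intervals of -0.32 to 0.22 and -0.45 to 0.33. The log2 ratio of Pdpr to Pdp1 was -3.97, -4.46 and -3.82 in WT and -4.78 and -5.42 in Flox, again with no overlap (exact permutation p = 0.1). The kinases Pdk1, Pdk2, Pdk3 and Pdk4, which phosphorylate E1 and shut it off, had log2 fold changes between -0.13 and 0.05, and none passed. Per length, Pdk2 made up 75.8% ± 1.12 of kinase transcripts in WT and 76.3% ± 3.30 in Flox (SD, n = 3 and 2), and the groups overlapped for all 4 kinases.

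Among the genes that fill the cycle or draw on it, 1 of 5 was lower. Pcx (ENSMUSG00000024892.18), pyruvate carboxylase, which makes oxaloacetate from pyruvate, had 1236, 1195 and 1368 normalized counts in WT and 1001 and 955 in Flox, with no overlap. The log2 fold change was -0.37 (SE 0.12, DESeq2 adjusted p = 0.0336). The call was lost without any single library, at DESeq2 adjusted p-values from 0.0980 to 0.580, and when the trend of counts on transcript length (0.112) or on GC content (0.0654) was removed. In the brain Pcx is known mainly as an astrocyte enzyme. The 9 astrocyte markers summed to 88223, 74863 and 108948 normalized counts in WT and to 78848 and 102319 in Flox. Their groups overlapped and 0 of 9 were called. Whether astrocyte RNA had a part in the lower Pcx was not tested. Cs, citrate synthase, had a log2 fold change of -0.02, and the log2 ratio of Pcx to Cs was -2.30, -2.29 and -2.22 in WT and -2.53 and -2.70 in Flox (exact permutation p = 0.1).

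Glud1, glutamate dehydrogenase, had 5534, 5442 and 5855 normalized counts in WT and 4807 and 4506 in Flox. The groups did not overlap, and the log2 fold change of -0.27 (SE 0.10) missed the threshold (DESeq2 adjusted p = 0.0619). With a filter on low counts it passed (0.0474). The malic enzymes turn malate into pyruvate. Me3, a mitochondrial form, was at 484, 454 and 530.3 in WT and at 411 and 325 in Flox, a log2 fold change of -0.41 (SE 0.17, DESeq2 adjusted p = 0.113), while the cytosolic Me1 had 0.08 and the mitochondrial Me2 -0.22. Per length, Me1 made up 63.2%, 64.2% and 63.4% of malic enzyme transcripts in WT and 66.6% and 72.3% in Flox. Me3 made up 15.6%, 14.7% and 15.1% in WT and 13.0% and 10.4% in Flox. For each of the 3 forms the groups did not overlap (exact permutation p = 0.1).

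The segment from citrate to oxoglutarate held 3 of the 8 lower genes, the subunits of NAD-dependent isocitrate dehydrogenase (IDH3), a rate-controlling enzyme of the cycle. Idh3a (ENSMUSG00000032279.12) encodes the catalytic alpha subunit, and Idh3b and Idh3g encode the beta and gamma subunits, which are structural or regulatory. Idh3a had 6389.8, 6083 and 6881 normalized counts in WT and 5083 and 4635 in Flox. Idh3b (ENSMUSG00000027406.14) had 8523, 8059.7 and 9896 in WT and 6913 and 6957 in Flox. Idh3g (ENSMUSG00000002010.18, on chromosome X) had 3484, 3225 and 4005 in WT and 2539 and 2168 in Flox. In none of the 3 did the groups overlap, and WT replicate 4 was the highest library in each. The log2 fold changes were -0.41 for Idh3a (SE 0.10, DESeq2 adjusted p = 0.0039), -0.35 for Idh3b (SE 0.11, 0.0335) and -0.60 for Idh3g (SE 0.13, 0.000309). Idh3a lost its call without WT replicate 2 (DESeq2 adjusted p = 0.0856) and without Flox replicate 4 (0.295), and Idh3g without Flox replicate 4 (0.0983). Idh3b lost it without WT replicate 2 (0.169), WT replicate 4 (0.0842), Flox replicate 2 (0.117) or Flox replicate 4 (0.381). The study had chosen Idh3g for follow-up partly from these libraries. It had measured Idh3a, as a known Esrrg target, in RNA of whole midbrain from other mice. There it reported Idh3a as reduced without Esrrg and as raised by Esrrg overexpression.

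IDH3 holds more alpha than beta or gamma subunits. Per length, Idh3g made up 24.8%, 24.4% and 25.1% of the IDH3 transcripts in WT and 23.0% and 20.7% in Flox, and Idh3b 49.99%, 50.2% and 51.0% in WT and 51.5% and 54.8% in Flox. Idh3a stayed between 23.9% and 25.5% in all 5 libraries, with overlap. The Flox share of Idh3g was lower by 2.91 percentage points and that of Idh3b higher by 2.74, without overlap (exact permutation p = 0.1 for each). The log2 ratio of Idh3g to Idh3b was -1.29, -1.32 and -1.30 in WT and -1.45 and -1.68 in Flox. Idh3b overlaps Nop56, which had reads equal to 17.6% of those of Idh3b, and reads within the overlap are not in either count.

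The other enzymes of this segment among the 37 genes did not pass. Cs, which joins acetyl-CoA to oxaloacetate, had 6102, 5841 and 6369 normalized counts in WT and 5787 and 6223 in Flox (log2 fold change -0.02, 95% interval -0.22 to 0.17). The cytosolic aconitase Aco1, also known as iron regulatory protein 1, had a log2 fold change of 0.08 (95% interval -0.32 to 0.47). The NADP-dependent isocitrate dehydrogenases make NADPH. Idh1, the cytosolic form, had a log2 fold change of -0.02, and Idh2, the mitochondrial form, had 707, 721 and 768 normalized counts in WT and 815 and 827 in Flox. In no other of the 37 genes did both Flox values exceed every WT value, and Idh2 was not called (log2 fold change 0.16, SE 0.13, DESeq2 adjusted p = 0.517). Per length, Idh1 made up 56.9%, 54.9% and 54.7% of Idh1 and Idh2 together in WT and 53.2% and 51.2% in Flox (exact permutation p = 0.1).

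From oxoglutarate to malate 1 of 7 genes was lower. Suclg1 (ENSMUSG00000052738.15) encodes the alpha subunit of succinyl-CoA ligase, which pairs with either of 2 beta subunits, the ATP-forming Sucla2 or the GTP-forming Suclg2. Suclg1 had 5022, 4852 and 5795 normalized counts in WT and 4274 and 3472 in Flox, with no overlap and a log2 fold change of -0.43 (SE 0.13, DESeq2 adjusted p = 0.0166). The call was lost without WT replicate 2 (0.0963), WT replicate 4 (0.0509) or Flox replicate 4 (0.616). Sucla2 had 4339, 4374 and 4603 in WT and 4257 and 4378 in Flox, so its groups overlapped (log2 fold change -0.04, 95% interval -0.23 to 0.15). Suclg2 was at 397 to 529 in WT and at 413 and 535 in Flox (log2 fold change 0.01, 95% interval -0.34 to 0.37). The log2 ratio of Suclg1 to Sucla2 was 0.21, 0.15 and 0.33 in WT and 0.01 and -0.33 in Flox, lower by 0.40 without overlap (exact permutation p = 0.1). Per length, Sucla2 was 93.5% ± 0.757 of both beta subunits in WT and 93.2% ± 1.02 in Flox (SD, n = 3 and 2).

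Ogdh and Dlst, the E1 and E2 components of the oxoglutarate dehydrogenase complex, had log2 fold changes of -0.18 (95% interval -0.36 to 0.01) and -0.10 (-0.30 to 0.09), and the brain-enriched form Ogdhl had -0.06 (-0.27 to 0.15). Ogdh was at 5305 and 5341 normalized counts in Flox against 5674 to 6185 in WT, with no overlap. The ratio of Dlst to Ogdh overlapped between the groups (exact permutation p = 0.6). Fh1, fumarase, had 2824, 2712 and 3023 in WT and 2466 and 2476 in Flox, without overlap (log2 fold change -0.21, SE 0.10, DESeq2 adjusted p = 0.232).

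**Figure D3:**
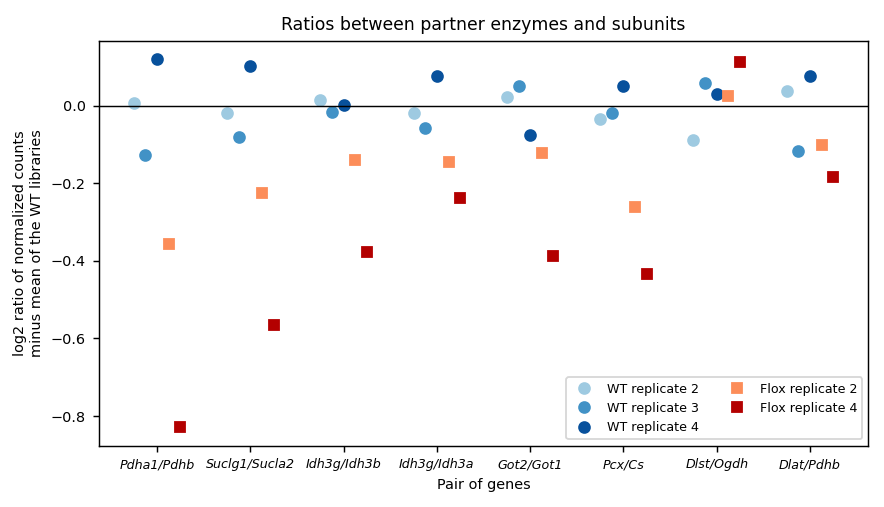
The log2 ratio of normalized counts within 8 pairs of genes is shown in every library relative to the mean of the WT libraries (vertical axis); circles are WT and squares are Flox libraries. The Flox squares lie below all WT circles for Pdha1/Pdhb, Suclg1/Sucla2, Idh3g/Idh3b, Idh3g/Idh3a, Got2/Got1 and Pcx/Cs, and overlap them for Dlst/Ogdh and Dlat/Pdhb.

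In the malate-aspartate shuttle 1 of 4 genes was lower. Got2 (ENSMUSG00000031672.9), the mitochondrial aspartate aminotransferase, had 5843, 5759.7 and 5787 normalized counts in WT and 4639.9 and 4266 in Flox. The WT libraries were close to each other (SD 42.5, n = 3) and the groups did not overlap, with a log2 fold change of -0.38 (SE 0.10, DESeq2 adjusted p = 0.00306). The call was lost without WT replicate 2 (0.111), WT replicate 3 (0.0526) or Flox replicate 4 (0.304). Got1, the cytosolic form, had 13242, 12799 and 14048 in WT and 11640.1 and 12858 in Flox (log2 fold change -0.13, 95% interval -0.32 to 0.07). Per length, Got1 made up 73.6%, 73.2% and 74.9% of both forms in WT and 75.5% and 78.7% in Flox, without overlap (exact permutation p = 0.1). Mdh1, the cytosolic malate dehydrogenase, was the most abundant of the 37 genes, at 32909.7, 32914 and 38828 in WT and 33413 and 40517 in Flox. Its log2 fold change was 0.08 (95% interval -0.16 to 0.32), and that of Mdh2, the mitochondrial form used by both the shuttle and the cycle, was -0.05 (-0.25 to 0.14).

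In all, 27 shares and ratios were compared between the groups, 17 shares within gene families and 10 ratios between partners. Of these, 16 did not overlap. Among single genes, both Flox libraries lay below all WT libraries in 22.5% of all genes and above them in 19.9%. The 27 are not separate results, since several hold the same genes and the shares of a family depend on each other. None of the 27 could reach an exact permutation p under 0.1, and the smallest p adjusted over the 27 was 0.169. The ratios were chosen after the fold changes were known, so that a ratio with a called gene above an uncalled one had to differ. The shares of the IDH3 subunits and of Got1 hold called genes too, so they are no separate support for those calls.

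The levels of the 37 genes spanned a wide range. Per kilobase of the principal transcript, the highest WT means were 16439 ± 1609.5 normalized counts for Mdh1, 7995 ± 550.2 for Mdh2, 6493 ± 307 for Got1 and 5462 ± 591 for Idh3b (SD, n = 3). Mdh1, Mdh2 and Got1 differed from their neighbours by more than these SDs. Below them Mpc2 (3565 ± 438) and Suclg1 (3439 ± 331) did not, nor did Idh3a (2685 ± 168) and Idh3g (2683 ± 299). The lowest were Pdk4 (41.0 ± 6.62), Pdp2 (35.7 ± 2.67) and Pdpr (21.9 ± 3.31). The 8 lower genes stood at ranks 4, 6, 7, 8, 9, 16, 28 and 37 of the order. Pdpr, at rank 37, was the only one of them with a mean under 1000 normalized counts. The other 7 were among the 26 genes at or above that level.

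**Figure D4:**
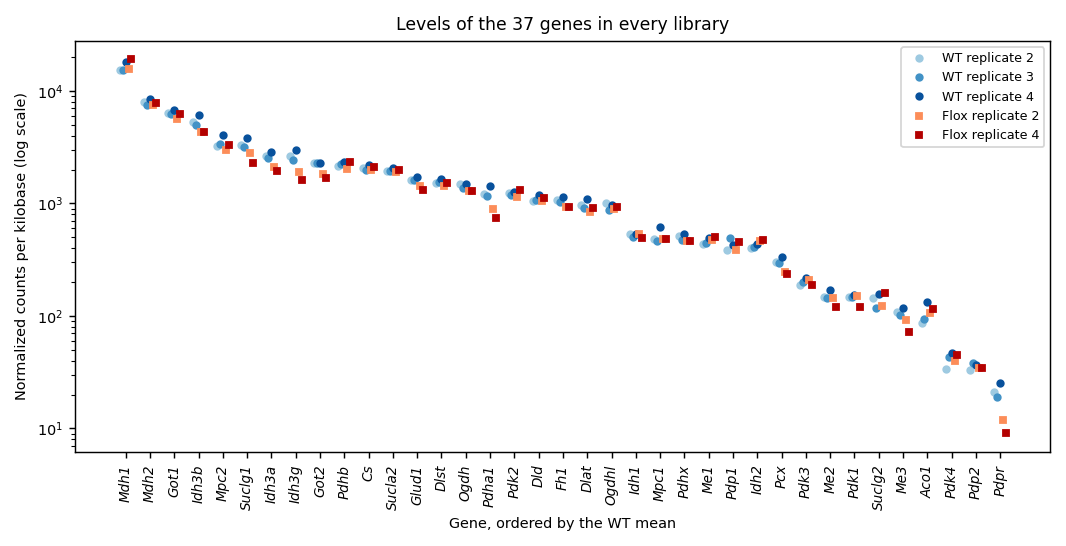
Normalized counts per kilobase of the principal transcript (vertical axis, log scale) are shown for the 37 genes in every library, ordered by the WT mean; circles are WT and squares are Flox libraries. Mdh1 is the highest at 16439 and Pdpr the lowest at 21.9 in WT, and in most genes the 5 points lie close together.

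Pdha1, Idh3g and Pdk3 are the X-linked genes of the 37. Pdk3 had a log2 fold change of -0.03 (95% interval -0.34 to 0.28), and Ssr4, which neighbours Idh3g, was at 1258 to 1283 normalized counts in WT and at 1408 and 1299 in Flox (log2 fold change 0.09). Of 526 X-linked genes tested, 3.61% were lower and 7.22% higher in Flox, against 4.07% and 4.09% of autosomal genes, with medians of 0.05 and -0.01. Xist, which is transcribed from the inactive X of females, was at 13.7, 14.3 and 66.3 in WT and at 8.65 and 97.4 in Flox, so the pools differed in sex-linked reads. Without WT replicate 4, the pool with almost no Y-linked reads, the log2 fold changes were -0.54 for Pdha1 and -0.51 for Idh3g. Both passed in that fit (DESeq2 adjusted p = 0.00192 and 0.00238). Without Flox replicate 4, the library with the most Xist, they were -0.50 for Pdha1 and -0.50 for Idh3g. The part of the sex makeup of the pools in the values of Pdha1 and Idh3g was not tested.

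Another 20 genes of these pathways were taken as a list, among them the succinate dehydrogenase subunits, the mitochondrial carriers of the shuttles and citrate, lactate dehydrogenase and the enzymes that attach lipoate. All 20 were tested, with 1 lower, 0 higher and a median log2 fold change of -0.08. At an unadjusted p under 0.05 there were 2 lower and 2 higher, and edgeR called 0. Slc25a12, the aspartate-glutamate carrier of the shuttle, had 6146, 5656 and 5933 normalized counts in WT and 5068 and 4599 in Flox, a log2 fold change of -0.29 (SE 0.10, DESeq2 adjusted p = 0.0483, edgeR 0.0995). Its call was lost without WT replicate 2 (DESeq2 adjusted p = 0.397), WT replicate 3 (0.151), WT replicate 4 (0.0770) or Flox replicate 4 (0.740). Ldha, which makes lactate from pyruvate, had 5629, 5818 and 6428 in WT and 6918 and 7823 in Flox, with no overlap and a log2 fold change of 0.31 (SE 0.11, DESeq2 adjusted p = 0.0564). Ldha passed as higher without WT replicate 4 (DESeq2 adjusted p = 0.0205), and without Flox replicate 2 its log2 fold change was 0.39. Ldhb, the more abundant lactate dehydrogenase gene, went the other way without a call (log2 fold change -0.11, SE 0.14, DESeq2 adjusted p = 0.737). The 4 succinate dehydrogenase subunits did not pass, with log2 fold changes of -0.14 for Sdha, -0.19 for Sdhb, 0.22 for Sdhc and 0.03 for Sdhd.

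**Figure D5:**
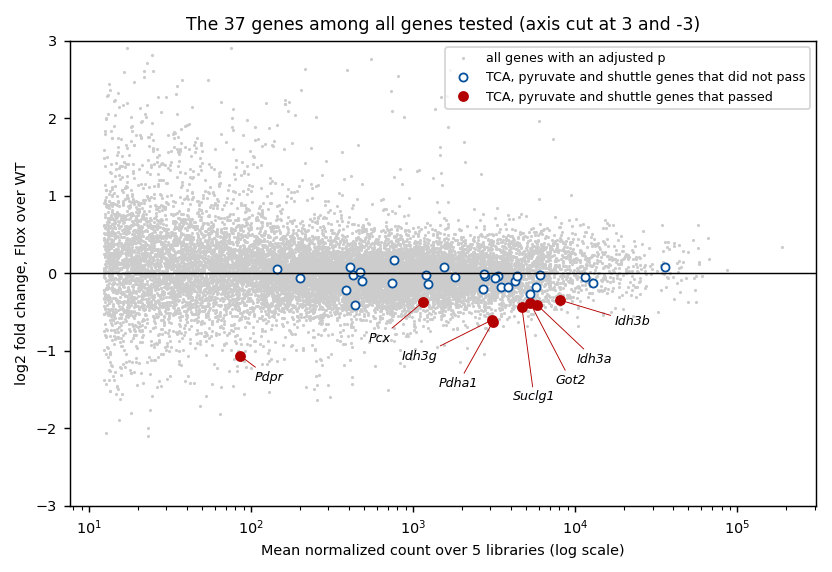
The log2 fold change of Flox over WT is plotted against the mean normalized count over the 5 libraries (log scale) for all genes with an adjusted p (grey, cut at 3 and -3) and for the 37 genes (open blue, not called; filled red, called). Apart from Pdpr, the called genes lie at means near 1000 normalized counts or above.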

How the data were processed

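Ribosome-bound RNA of 3 Esrrg WT and 2 Esrrg Flox pools was sequenced from poly(A)-selected libraries that do not keep strand. The authors trimmed reads with Trim Galore (version 0.6.6), aligned them with STAR and counted reads per gene with HTSeq, and deposited the raw read counts without normalization. The methods name GRCm38 with a GENCODE annotation and the submitters' processing notes name GRCm39, STAR 2.7.9a and HTSeq 0.11.3, so no coordinates are taken from the counts. Of 53700 gene IDs, 97.1% were named through GENCODE release M21 (with transcript lengths from the same release). Reads in overlaps (5.62% to 5.78% of the total) and with several alignments (3.60% to 4.23%) are in no gene's count, nor are those outside genes (3.18% to 4.45%). At 20635855 to 23105058 assigned counts, 3 counts correspond to 0.130 to 0.145 CPM, which covers counting error only.

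Genes were tested with DESeq2 (version 1.42.0, R version 4.3.3, Wald test, two-sided, genotype only), adjusted over the 15724 of 29407 genes that passed independent filtering, after tests on simulated data. Alternatives were edgeR (version 4.0.16, quasi-likelihood test on the 16711 genes that reached 10 counts in 2 or more libraries), TMM library sizes, that filter in DESeq2, length and GC trends removed, the replicate block, no independent filtering and leaving out each library. Shares and ratios were compared by exact permutation over the libraries, two-sided. The members, lists and role groups were chosen with earlier results of these data known. Values in every library are given for the members that passed, for the IDH3 and E1 subunits and for selected others. Genes outside the 8 that passed, partner ratios included, were picked for mention after their values were seen. One item of the list of other pathway genes is not reported here.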

Additional observations from a re-analysis of the deposited data

How the results depend on the processing

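The 8 lower genes kept their direction in all 12 alternatives, and 0 of the 37 genes was called higher in any. The lower call stood for 8 of them with TMM library sizes or the filter on low counts, for 7 with the length or GC trend removed, for 6 without independent filtering and for 2 in edgeR. The median of the 37 ran from -0.15 (replicate block) to -0.07 (without WT replicate 4). Leaving out each library, 0 to 6 of the 37 were lower, and 0 to 4 with a fold of at least 1.5. In these same fits 39 to 807 of all genes were lower and 33 to 778 higher, with the fewest without Flox replicate 4. The edgeR test called 105 of all genes lower and 170 higher. Of the other 20 pathway genes, 0 were lower in edgeR, with the GC trend removed, with the replicate block and without independent filtering (1 or 2 at an unadjusted p under 0.05 in each), and 0 to 2 when a library was left out. Higher calls among them were 1 with the filter on low counts, 1 with the GC trend removed, and 0 to 1 when a library was left out.

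WT and Flox libraries share the replicate numbers 2 and 4, but nothing states that a number marks a shared litter or day. Deviations from the group mean had r = 0.09 between same-numbered libraries, for each number, across 16711 genes, which are not independent replicates. With 2 Flox libraries these deviations are exact opposites (r = -1). The values for the 2 numbers are therefore not separate checks and cannot decide whether a number was shared. With the replicate block 6 of the 37 genes were lower (2 with a fold of at least 1.5), and 255 of all genes were lower and 221 higher. Pdpr had no adjusted p in that fit and Pcx was at 0.192.

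Genes that were not called changed sign in some fits. With the length trend removed the log2 fold change was 0.026 for Cs, 0.0036 for Ogdhl, 0.0074 for Pdk2, 0.030 for Pdp1 and 0.017 for Pdp2, and with the GC trend removed it was 0.025 for Pdk2. With the replicate block it was -0.11 for Suclg2 and 0.041 for Pdp1. Leaving out each library, the log2 fold change ran from -0.081 to 0.028 for Cs, from -0.048 to 0.29 for Aco1, from -0.071 to 0.020 for Idh1, from -0.088 to 0.018 for Dld and from -0.19 to 0.19 for Suclg2. It ran from -0.066 to 0.22 for Mdh1, from -0.14 to 0.060 for Pdhb, from -0.31 to 0.025 for Pdk1, from -0.12 to 0.091 for Pdk2 and from -0.10 to 0.033 for Pdk3. Its range was from -0.077 to 0.15 for Pdk4, from -0.19 to 0.070 for Pdp1 and from -0.18 to 0.028 for Mpc1. The cause of these changes was not tested.

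Without division by length, the differences in share (Flox minus WT, in percentage points) were -2.31 for Idh3g, -1.20 for Pdk1, -1.83 for Me2 and -4.45 for Me3. Leaving out each library they ran from -4.04 to -1.77 for Idh3g, 1.14 to 4.35 for Idh3b, -1.96 to 0.70 for Pdk1, -1.80 to 2.87 for Pdk2, -1.11 to 1.05 for Pdk3, -0.59 to 0.61 for Pdp1, 3.03 to 8.66 for Me1, -3.95 to -0.96 for Me2, -4.71 to -2.07 for Me3, 1.62 to 4.85 for Got1, 0.45 to 3.52 for Mdh1 and 0.12 to 1.20 for Mpc1. With 3 WT and 2 Flox pools, the 95% intervals give the range of differences that the data leave for the genes that did not pass.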
